A study of Mus musculus with 6 samples.

Results

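The 10 genes listed here for MHC class II antigen presentation were followed in bulk RNA sequencing of skull osteoblast cultures, and the 3 genes for the class II chains themselves were about 2 times as abundant in APPswe as in control cells, while most of their partners were not. H2-Aa rose 2.11-fold, H2-Ab1 2.08-fold and H2-Eb1 1.76-fold in mean CPM. All 3 were higher in every APPswe library than in any control library, as were 22.8% of all genes tested. Of the genes that load, regulate or accompany these chains, those tested did not pass with all libraries. H2-DMa, Cd74 and Cd80 overlapped between the genotypes (Cd74 through 1 control library). H2-DMb1 and Cd86 lay below every control in all 3 APPswe libraries, as did 22.2% of all genes tested. Ciita and Flt3 were too low to test. Ciita was counted in at most 11 reads, at a mean CPM 2.31-fold that of control in APPswe libraries, with overlap. Flt3 was counted in none. The members were listed by symbol (H2-Aa, H2-Ab1, H2-Eb1, H2-DMa, H2-DMb1, Cd74, Ciita, Cd80, Cd86 and Flt3), and all 10 have a row among the 17830 genes of the deposited count table. Of them, 8 passed the filter on low counts and were tested among 13484 genes.

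MHC class II molecules are cell surface heterodimers that show peptides from engulfed proteins to CD4+ T cells. The alpha and beta chains pair with the invariant chain in the endoplasmic reticulum, travel to endosomes, lose the invariant chain to proteases and receive their peptide with the help of the H2-DM complex. Dendritic cells, B cells and macrophages are the usual presenting cells, interferon gamma induces the genes in many other cells through the transactivator Ciita, and cells of the osteoblast lineage are not counted among the professional presenting cells.

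The study compared 3 control with 3 APPswe libraries to see which genes change in osteoblasts that express the transgene, all from mice aged 6 months on a C57BL/6J background. Control mice (mOCN-Cre;Ai9) carry Cre knocked in at the osteocalcin gene Bglap and the Ai9 allele, which makes tdTomato once Cre has acted. APPswe mice (TgAPPswe mOCN-Cre;Ai9) carry both of these alleles too, and in addition a human APP transgene with the Swedish mutation, driven by the ubiquitous CAG promoter and silent until Cre removes a stop cassette. Fragments of skull bone were cultured and tdTomato-positive cells were sorted from them, so any cell in which Cre had acted once is included, whatever it expressed at harvest.

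The libraries held between 17263757 and 18398392 counts, and 3 counts, taken as the floor of detection for counting error only, correspond to between 0.167 and 0.173 CPM (the reads of a gene relative to its library total after TMM scaling). The sequence of the transgene is human, and mouse App, at 1119 ± 154 CPM in control and 1036 ± 19.2 CPM in APPswe libraries (SD, n = 3 each; log2 fold change -0.11, edgeR adjusted p = 0.507), does not check the labels. Control replicate 2 stood apart from the other 5 libraries: it held 2 counts over 4 Y-linked genes, against 2257 to 3406 elsewhere, and 1 count of Bglap, against 115 to 204, although the study describes the mice of this experiment as male. Its library name also differs, with an S where those of the other 5 libraries have an L, which the labels do not explain. Each result below is therefore given with and without this library where it matters. All 13 macrophage markers were detected in every library, at a summed 17794 to 24778 CPM in control and 12451 to 13423 CPM in APPswe libraries and led by Lyz2 and C1qb, so transcripts typical of macrophages were abundant in RNA labelled as osteoblast RNA. The osteoblast collagens Col1a1 and Col1a2 reached 4841 and 4962 CPM in control libraries.

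H2-DMa, H2-DMb1, H2-Ab1, H2-Aa and H2-Eb1 lie together on mouse chromosome 17, and 3 of them show upstream of their start the sequence arrangement for which class II promoters are known, an X box followed by a Y box (a CCAAT box, read here as ATTGG). The stretches of 100 bases that end at the base before the RefSeq start site (GRCm38.p6) are shown for the 3 members whose window matched. The 2 windows of H2-DMa did not match. H2-Eb1 and H2-Aa were higher in APPswe libraries, and H2-DMb1 lay lower without passing the test. Capitals mark GNAAC, the core of the X box, and ATTGG.
H2-Eb1, chr17:34305767-34305866, plus strand: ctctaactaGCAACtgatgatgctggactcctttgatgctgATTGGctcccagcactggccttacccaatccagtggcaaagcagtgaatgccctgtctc
H2-Aa, chr17:34287824-34287923, minus strand: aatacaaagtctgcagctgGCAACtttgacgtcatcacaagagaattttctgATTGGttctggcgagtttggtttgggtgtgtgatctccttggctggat
H2-DMb1, chr17:34153091-34153190, plus strand: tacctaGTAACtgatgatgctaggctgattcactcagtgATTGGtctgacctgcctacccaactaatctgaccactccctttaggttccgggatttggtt
In these stretches 27 bases separate the capitals in H2-Eb1 and 28 in H2-Aa and H2-DMb1, and the X letters begin 91, 81 and 94 bases before the start site of H2-Eb1, H2-Aa and H2-DMb1. Promoter windows of 300 bases were at hand for 6 of the 10 members, and none were for H2-Ab1, Cd74, Ciita and Cd86. On either strand, GNAAC followed within 10 to 40 bases by ATTGG stood in 4.87% of the 32851 windows of all genes and in those of the 3 members shown. That search was written after the windows had been seen. The stricter letters AGNAAC with the same spacing stood in 1.67% of windows, H2-DMb1 and H2-Eb1 among them. Single elements are common: CCAAT stood in 37.4% of windows (H2-Aa, H2-DMa, H2-DMb1 and H2-Eb1), AGNAAC in 48.1% (Cd80, H2-DMa, H2-DMb1 and H2-Eb1), and TGACG, the X2 letters, in 20.8% (H2-Aa alone among the members). A match to letters is a description and does not show that a factor binds.

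The alpha and beta chains form the peptide groove. H2-Aa (NCBI gene 14960), the alpha chain of the I-A molecule, was counted in 71, 106 and 68 reads in control replicates 1, 2 and 3 and in 177, 174 and 173 reads in APPswe replicates 1, 2 and 3. In CPM these were 4.10, 5.95 and 3.84 against 9.92, 9.69 and 9.72. The APPswe libraries lay close to each other and well above all controls, of which control replicate 2 was the highest. The means were 4.63 ± 1.16 and 9.77 ± 0.126 CPM (SD, n = 3 each), and the log2 fold change was 1.08 (standard error 0.20, 95% interval 0.61 to 1.54, edgeR quasi-likelihood test, Benjamini-Hochberg adjusted p = 0.0112). Without control replicate 2 the log2 fold change was 1.30 (edgeR adjusted p = 1.394e-05).

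H2-Ab1 (NCBI gene 14961), the beta chain that pairs with H2-Aa, was counted in 145, 127 and 188 control reads and in 279, 339 and 352 APPswe reads, or 8.37, 7.13 and 10.6 against 15.6, 18.9 and 19.8 CPM. Here control replicate 2 was the lowest library, and again the genotypes did not overlap. The means were 8.70 ± 1.76 and 18.1 ± 2.18 CPM (SD, n = 3 each), and the log2 fold change was 1.06 (standard error 0.18, 95% interval 0.63 to 1.49, edgeR adjusted p = 0.0092). Without control replicate 2 it was 0.93 (edgeR adjusted p = 0.000295), which is past the p limit and short of the fold limit.

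H2-Eb1 (NCBI gene 14969), the beta chain of the I-E molecule, was counted in 82, 66 and 78 control reads and in 142, 134 and 129 APPswe reads, or 4.73, 3.71 and 4.40 against 7.96, 7.46 and 7.24 CPM. Mice of the C57BL/6 strain make no I-E alpha chain, so this beta chain is transcribed without its usual partner. All APPswe libraries were again above all controls. The means were 4.28 ± 0.523 and 7.55 ± 0.365 CPM (SD, n = 3 each), and the log2 fold change was 0.82 (standard error 0.16, 95% interval 0.45 to 1.19, edgeR adjusted p = 0.0133) with all libraries and 0.73 (edgeR adjusted p = 0.00121) without control replicate 2. In bulk RNA, fewer cells that carry a transcript and less of it per cell cannot be told apart, and this holds for each difference given here.

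To be called, a gene had to reach a log2 fold change of 1 in either direction with an adjusted p no larger than 0.05. Among the 8 members tested, H2-Aa and H2-Ab1 were called higher, against 3.74% of all genes tested, and 0 were called lower, against 3.60%. At the adjusted p alone 3 members were higher (background 10.5%) and 0 lower (background 12.0%). The groups did not overlap, with APPswe above, in 3 members (background 22.8%) and, with APPswe below, in 2 (background 22.2%). Both calls sit close to the limits: H2-Aa was not called when control replicate 1 (log2 fold change 0.99), control replicate 3 (0.95), APPswe replicate 1 (edgeR adjusted p = 0.0536), APPswe replicate 2 (0.0584) or APPswe replicate 3 (0.0583) was left out, and H2-Ab1 was not called without control replicate 2 (log2 fold change 0.93), APPswe replicate 2 (edgeR adjusted p = 0.0502) or APPswe replicate 3 (0.0519). H2-Eb1 did not pass the p limit without APPswe replicate 1 (0.0603), 2 (0.0694) or 3 (0.0624).

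**Figure D1:**
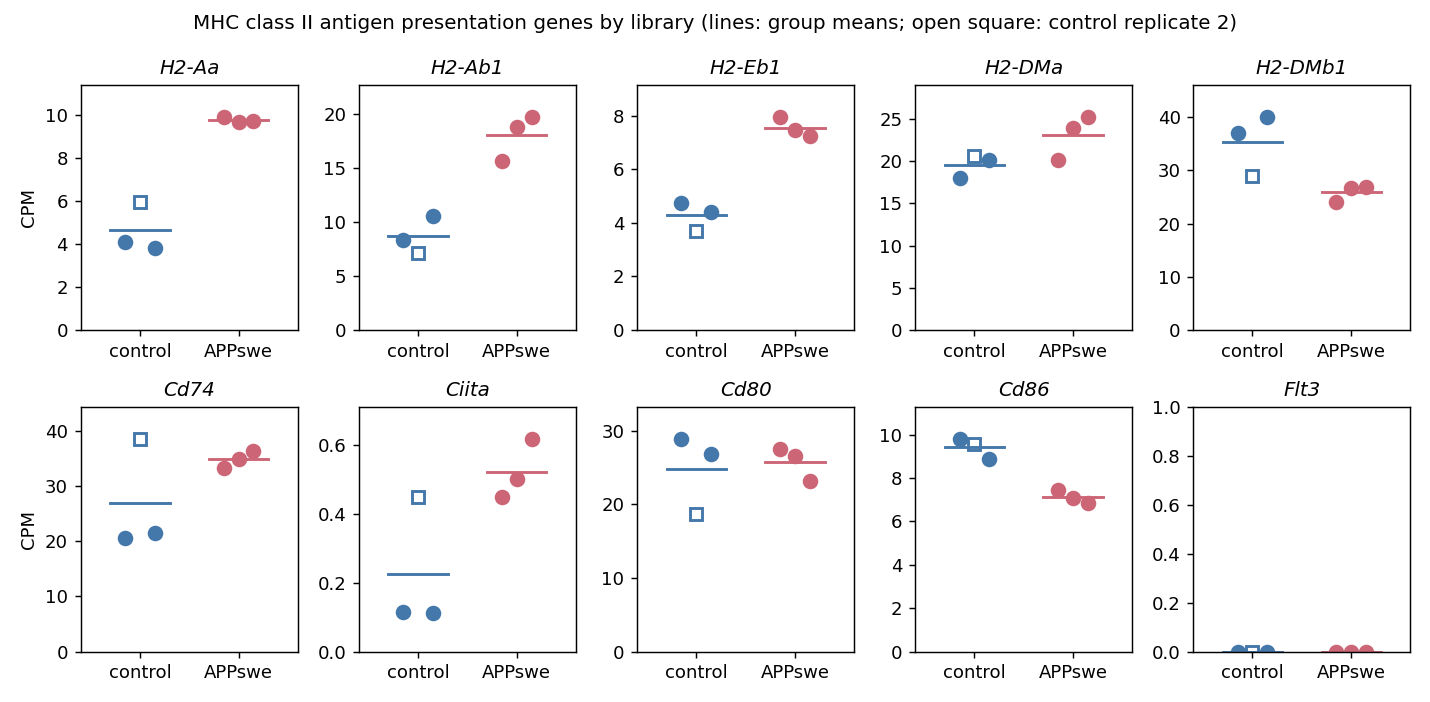
CPM of each of the 10 members (y axis, linear, from 0, with its own range in each panel) in the 3 control (blue) and 3 APPswe (red) libraries; lines are group means, and the open square is control replicate 2. H2-Aa, H2-Ab1 and H2-Eb1 are above every control in each APPswe library, H2-DMb1 and Cd86 are below, and Cd74 and Ciita overlap through control replicate 2.

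Added together, the 3 chains came to 17.6 ± 1.08 CPM in control and 35.4 ± 1.69 CPM in APPswe libraries (SD, n = 3 each). The range within controls was 16.8 to 18.8 CPM, so control replicate 2, with the highest H2-Aa and the lowest H2-Ab1 and H2-Eb1, was near the other controls in the sum. The ratio of H2-Aa to H2-Ab1 counts, uncorrected for length, was 0.362 to 0.835 in control and 0.492 to 0.634 in APPswe libraries.

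The next members handle the chains inside the cell. Cd74 (NCBI gene 16149), the invariant chain that fills the groove until peptide is loaded, was counted in 356, 686 and 380 control reads and 593, 626 and 645 APPswe reads, or 20.5, 38.5 and 21.4 against 33.2, 34.9 and 36.2 CPM. Control replicate 2 was the highest of all 6 libraries, and the other controls were the lowest. With it, the means were 26.8 ± 10.1 and 34.8 ± 1.50 CPM (SD, n = 3 each), and the log2 fold change was 0.37 (standard error 0.24, 95% interval -0.21 to 0.95, edgeR adjusted p = 0.307). Without it the log2 fold change was 0.73 (edgeR adjusted p = 4.385e-05), so this 1 library decided whether Cd74 passed the p limit. For each count of the 3 chains there were 1.54 ± 0.652 Cd74 counts in control and 0.982 ± 0.0127 in APPswe libraries (SD, n = 3 each).

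H2-DMa (NCBI gene 14998) and H2-DMb1 (NCBI gene 14999) encode the 2 chains of the H2-DM complex, which exchanges the remnant of the invariant chain for peptide. H2-DMa was counted in 313, 367 and 357 control reads and 360, 431 and 450 APPswe reads, or 18.1, 20.6 and 20.1 against 20.2, 24.0 and 25.3 CPM. The groups overlapped, and the log2 fold change was 0.24 (standard error 0.12, 95% interval -0.05 to 0.53, edgeR adjusted p = 0.198).

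H2-DMb1 lay the other way. It was counted in 640, 516 and 710 control reads and 430, 478 and 478 APPswe reads, or 36.9, 29.0 and 40.05 against 24.1, 26.6 and 26.8 CPM. All APPswe libraries were below all controls, of which control replicate 2 was the lowest. The log2 fold change was -0.45 (standard error 0.14, 95% interval -0.77 to -0.13, edgeR adjusted p = 0.055) with all libraries and -0.57 (edgeR adjusted p = 0.000285) without control replicate 2. The direction was that of the main scaling and of library totals or DESeq2 size factors, and it turned to 0.29 (edgeR adjusted p = 0.0622) when the summed macrophage marker counts served as library size, a scaling that moved the median of all genes from -0.0033 to 0.715. The count ratio of H2-DMb1 to H2-DMa was 1.41 to 2.05 in control and 1.06 to 1.19 in APPswe libraries, without overlap. Of all 50-base words in the longest H2-DMb1 transcript, 27.2% also occur in the neighbouring gene H2-DMb2, so its reads could be divided between both genes and its count is uncertain, while the other 9 members share no such word with another gene.

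Ciita (NCBI gene 12265), the transactivator on which class II transcription depends, was counted in 2, 8 and 2 control reads and in 8, 9 and 11 APPswe reads. Control replicate 2 was level with the lowest APPswe library, at 0.449 against 0.448 CPM, and the other controls were under the floor of 3 counts. It did not pass the filter on low counts. When no filter was applied its adjusted p was 0.225 (edgeR), so a difference was not detectable at this depth. Flt3 (NCBI gene 14255), the receptor tyrosine kinase of dendritic cell progenitors, had 0 counts in all 6 libraries, which allows up to the floor of 0.167 to 0.173 CPM in each.

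The last members are co-stimulatory ligands that a presenting cell offers to CD28 on T cells. Cd80 (NCBI gene 12519) was counted in 501, 332 and 475 control reads and 492, 476 and 412 APPswe reads, or 28.9, 18.7 and 26.8 against 27.6, 26.5 and 23.1 CPM. The groups overlapped and control replicate 2 was the lowest library. The log2 fold change was 0.05 (standard error 0.18, 95% interval -0.36 to 0.47, edgeR adjusted p = 0.85), and -0.11 (edgeR adjusted p = 0.371) without control replicate 2.

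Cd86 (NCBI gene 12524) was counted in 170, 170 and 157 control reads and 133, 127 and 122 APPswe reads, or 9.81, 9.55 and 8.86 against 7.45, 7.07 and 6.85 CPM. All APPswe libraries were below all controls, with little spread in either group. The log2 fold change was -0.40 (standard error 0.12, 95% interval -0.69 to -0.11, edgeR adjusted p = 0.0584) with all libraries and -0.39 (edgeR adjusted p = 0.0213) without control replicate 2. With macrophage marker counts as library size, a scaling that moves all genes nearly alike, it was 0.32 (edgeR adjusted p = 0.194), below the shifted median of all genes.

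Without control replicate 2, 4 of the 8 members (H2-Aa, H2-Ab1, H2-Eb1 and Cd74) were higher at the adjusted p, against 23.3% of all genes, and 2 (H2-DMb1 and Cd86) were lower, against 25.0%. With all libraries the median log2 fold change of the 8 members was 0.31, beside -0.0033 over all genes tested.

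**Figure D2:**
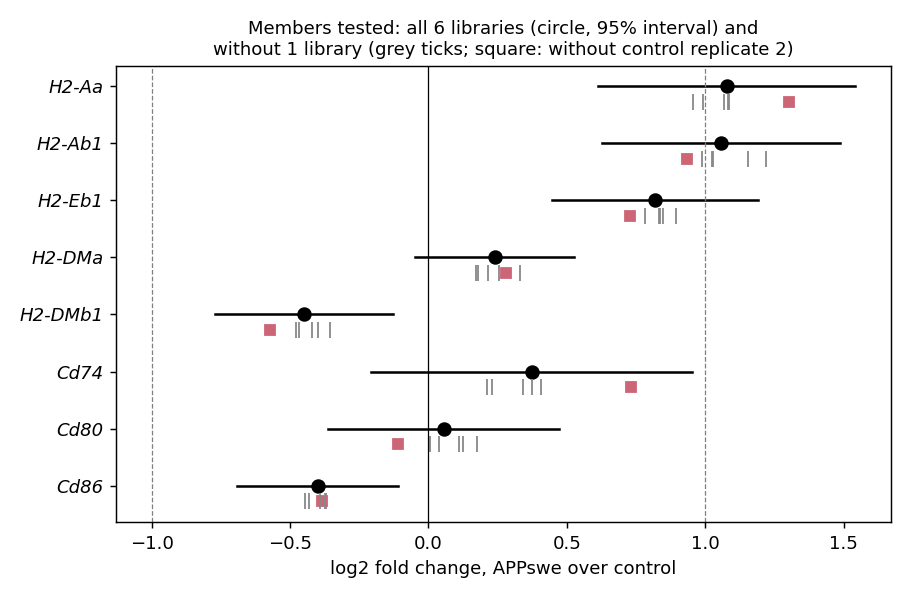
Log2 fold change of APPswe over control (x axis) for the 8 members tested; circles with lines are the estimate from all 6 libraries with its 95% interval, grey ticks the estimate with 1 library left out, the red square the one without control replicate 2, and dashed lines a log2 fold change of 1 in either direction. Leaving out control replicate 2 moved Cd74 from 0.37 to 0.73 and H2-Aa from 1.08 to 1.30, and turned Cd80 from 0.05 to -0.11.

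Levels were compared between members by FPKM, the authors' values corrected for transcript length and library total. In control libraries H2-DMb1 was the most abundant at 33.5 ± 5.32 FPKM (SD, n = 3), and its range overlapped that of Cd74. The order went on with Cd80 (14.1 FPKM), H2-DMa (11.9) and H2-Ab1 (9.05), in which each neighbour overlapped the next, and then with H2-Aa (5.18), Cd86 (4.02) and H2-Eb1 (2.96), which did not overlap. In APPswe libraries Cd74 led at 35.5 ± 1.22 FPKM (SD, n = 3), followed by H2-DMb1 (25.9) and H2-Ab1 (19.9), without overlap. Cd80 (15.3) and H2-DMa (14.9) were the only neighbours that overlapped there, followed by H2-Aa (11.5), H2-Eb1 (5.50) and Cd86 (3.21). H2-Ab1 thus stood in place 5 in control and in place 3 in APPswe libraries. In both groups Ciita, at 0.0367 and 0.0733 FPKM, was last but for Flt3.

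The 5 members on chromosome 17 lie within chr17:34119693-34316674 (GRCm38.p6, RefSeq gene bounds), a stretch of 197 kb in which the count table has 11 genes, all tested. From H2-DMa at one end the genes are H2-DMb2, H2-DMb1, the class I peptide supply genes Psmb9, Tap1, Psmb8 and Tap2, then H2-Ob, H2-Ab1, H2-Aa and H2-Eb1. The genes that rose were the last 3, whose starts lie 143.5, 163.1 and 186.2 kb from that of H2-DMa. Between the 2 blocks of class II genes, Tap2, one chain of the peptide transporter (log2 fold change -0.43, edgeR adjusted p = 0.0422), and Psmb8, an immunoproteasome subunit (-0.72, edgeR adjusted p = 0.0441), fell, while Tap1 (-0.80, edgeR adjusted p = 0.109) and Psmb9 (-0.22, edgeR adjusted p = 0.332) did not pass. Tap1 passed once control replicate 2 was left out (-0.33, edgeR adjusted p = 0.00715), and Psmb8 then fell less (-0.44, edgeR adjusted p = 0.000522). The other members lie elsewhere: Cd80 at chr16:38457430-38495958, Cd86 at chr16:36568956-36666158, Ciita at chr16:10480014-10531064, Cd74 at chr18:60803849-60812652 and Flt3 at chr5:147330741-147400489.

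**Figure D3:**
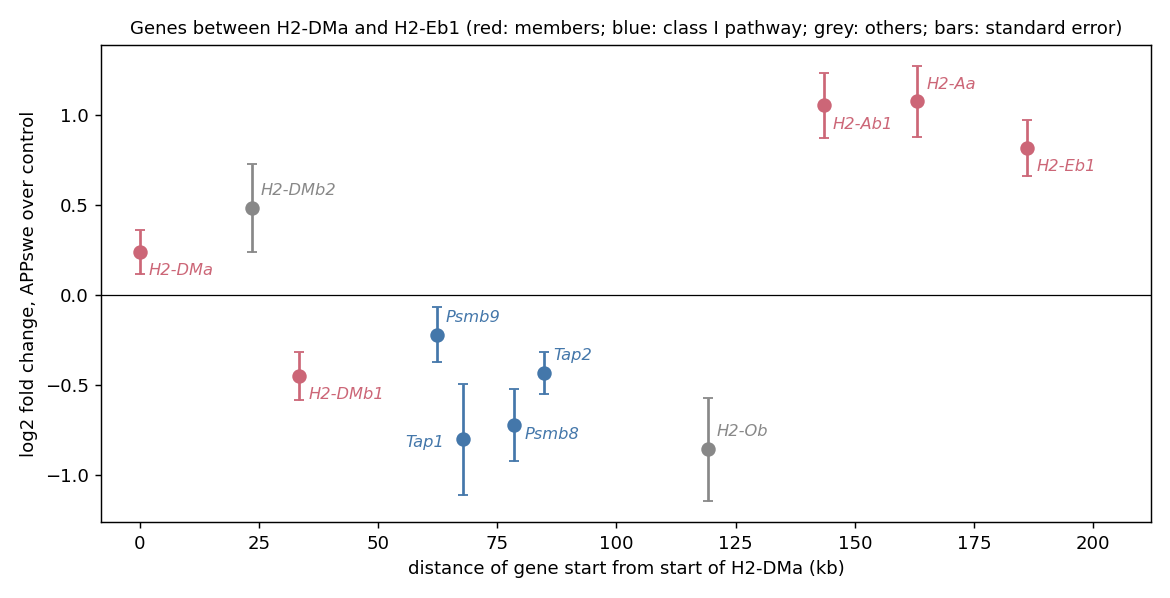
Log2 fold change of APPswe over control with its standard error (y axis) for the 11 genes of the class II region, by distance of the gene's start from that of H2-DMa in kb (x axis); members are red, class I pathway genes blue, other class II genes grey. H2-Ab1, H2-Aa and H2-Eb1 at the right lie at 0.82 to 1.08, and Psmb9, Tap1, Psmb8, Tap2 and H2-Ob between them and H2-DMb1 lie below 0.

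Of the other class II genes, H2-DMb2 (log2 fold change 0.48, edgeR adjusted p = 0.197), which is close kin to H2-DMb1, and H2-Ob (-0.86, edgeR adjusted p = 0.0742), a chain of the H2-DO complex that restrains H2-DM, did not pass. Without control replicate 2, H2-Ob was called lower (-1.01, edgeR adjusted p = 0.0136). H2-Oa was too low to test.

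The class I pathway, which shows peptides from inside the cell to CD8+ T cells, lay on the opposite side of 0. Of 14 genes tested, 9 fell at the adjusted p (background 12.0%) and 0 rose (background 10.5%). The median log2 fold change was -0.71, and all 14 estimates were negative. B2m, the light chain of class I molecules, was called lower, from 1807 to 768 CPM (log2 fold change -1.23, edgeR adjusted p = 0.000407). Without control replicate 2, 11 of the 14 fell (background 25.0%) and the median was -0.41. With library totals alone 4 of the 14 fell, and with macrophage marker counts as library size 1 fell and 1 rose at a median of -0.03, which is 0.741 under that of all genes. For each 1000 counts of H2-K1, H2-D1 and B2m, the class I chains, the libraries held 3.37 ± 0.105 class II chain counts in control and 13.0 ± 0.0569 in APPswe (SD, n = 3 each, not corrected for length). No test was made of the difference between both pathways.

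Of 5 enzymes that process the invariant chain and antigens, 2 fell (background 12.0%) and 0 rose (background 10.5%). Those that fell were Ctsb (cathepsin B), the most abundant, from 11200 to 5648 CPM (log2 fold change -0.99, edgeR adjusted p = 0.00139), and Lgmn (legumain) (-0.34, edgeR adjusted p = 0.0466). Ctss, the cathepsin that trims the invariant chain in most presenting cells, was at -0.29 (edgeR adjusted p = 0.124). Ifi30, a thiol reductase of endosomes, lay higher in all APPswe libraries, at 115.7 against 132.1 CPM in the means (0.19, edgeR adjusted p = 0.0653). The list had a median of -0.29. With control replicate 2 left out 3 of the 5 fell (background 25.0%), among them Ctss (-0.16, edgeR adjusted p = 0.0428). Ctsb was then called lower (-1.06, edgeR adjusted p = 7.705e-08). Only Ifi30 rose (0.19, edgeR adjusted p = 0.021, background 23.3%), and the median was -0.16.

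Among 9 transcription factors of class II genes, 0 rose (background 10.5%) and 2 fell (background 12.0%), and the median was 0.11. Those that fell were the myeloid factors Spi1 (PU.1; log2 fold change -0.35, edgeR adjusted p = 0.0167) and Irf8 (-0.65, edgeR adjusted p = 0.00315). Nfya, a subunit of the factor that binds the Y box, was at -0.06 (edgeR adjusted p = 0.599), and Rfx5, Rfxap and Rfxank, which make up the complex at the X box, did not pass either. Nfyb, another subunit of the Y box factor, was at 0.19 (edgeR adjusted p = 0.215). It rose once control replicate 2 was left out (0.25, edgeR adjusted p = 0.0402), the only factor of the 9 to do so (background 23.3%). Of 4 genes for the turnover of class II molecules or the invariant chain, 2 fell (background 12.0%). They were March8, a ubiquitin ligase that removes class II molecules from the surface (-0.33, edgeR adjusted p = 0.0191), and Cd83, which protects these molecules (-0.85, edgeR adjusted p = 0.00385). Sppl2a, which clears the invariant chain remnant, did not pass (-0.36, edgeR adjusted p = 0.0757), and the list's median was -0.35. Sppl2a passed without control replicate 2 (-0.23, edgeR adjusted p = 0.0228), where 3 of the 4 fell (background 25.0%).

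Of 4 other co-stimulatory or checkpoint genes tested, 2 were lower at the adjusted p (background 12.0%) and 1 higher (background 10.5%). Cd40, the receptor for T cell help on presenting cells, was called lower (background 3.60%), from 6.33 to 1.51 CPM (log2 fold change -2.06, edgeR adjusted p = 0.00395). Icosl fell (-0.77, edgeR adjusted p = 0.0421) and Cd276 rose (0.59, edgeR adjusted p = 0.0294), neither by enough to be called. The median was -0.31. Leaving out control replicate 2 moved it to -0.06, with 2 genes lower (background 25.0%) and 2 higher (background 23.3%). Icosl was then at -0.51 (edgeR adjusted p = 0.00293), and Cd274 (PD-L1), which had overlapped at 0.15 (edgeR adjusted p = 0.599), rose (0.38, edgeR adjusted p = 0.0173).

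In the interferon gamma axis, which has 8 genes tested (Ifng was not analysed here), 1 was called higher (background 3.74%) and 1 lower (background 3.60%). The median was -0.05 and turned to 0.02 with library totals alone. Socs1, a feedback inhibitor of the pathway, was called higher (log2 fold change 1.13, edgeR adjusted p = 0.0489). Gbp2, a target, was called lower (-1.26, edgeR adjusted p = 0.0444). Gbp2 stood at 26.8, 65.7 and 28.8 CPM in the controls and at 17.4, 17.8 and 15.5 CPM in APPswe libraries, so control replicate 2 was far above the rest. Without it Gbp2 was no longer called (-0.71, edgeR adjusted p = 0.000117). Of the 8 genes 2 then rose (background 23.3%) and 2 fell (background 25.0%), near the shares of all genes, and the median was -0.09.

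**Figure D4:**
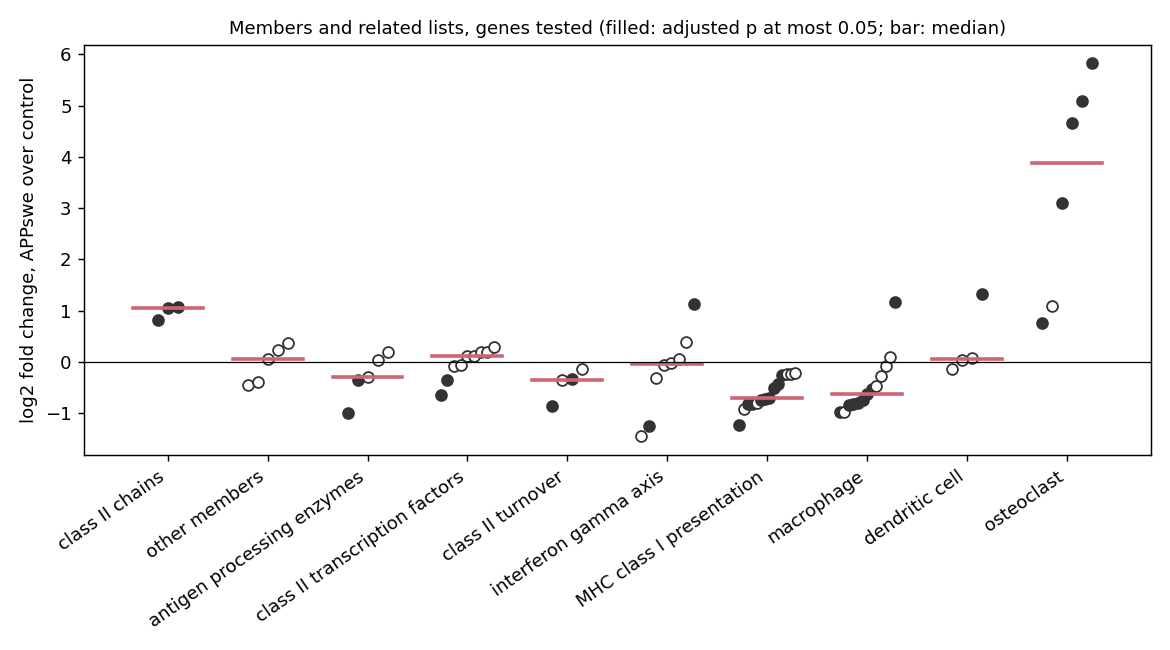
Log2 fold change of APPswe over control (y axis) for each gene tested in the members and in 8 related lists (x axis); filled points have an adjusted p of at most 0.05 and red bars are medians. The 3 class II chains lie at 0.82 to 1.08, the other members around 0, the class I pathway at a median of -0.71 and macrophage markers at -0.62.

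Markers of presenting cells were read beside the class II chains. Of 13 macrophage markers, 7 fell (background 12.0%), with a median of -0.62. One marker, Aif1, was called higher (log2 fold change 1.18, edgeR adjusted p = 0.0205, background 3.74%). When control replicate 2 was left out 9 fell (background 25.0%), 3 rose (background 23.3%) and the median was -0.47. Those that rose were Aif1, no longer called (0.91, edgeR adjusted p = 4.356e-06), Csf1r, the receptor of the macrophage growth factor (0.23, edgeR adjusted p = 0.00556), and Cx3cr1 (0.32, edgeR adjusted p = 0.00512), while with all libraries Csf1r was at -0.07 and Cx3cr1 at -0.48, short of the p limit. Lyz2, the most abundant, was at -0.83 (edgeR adjusted p = 0.0222) and C1qb at -0.81 (edgeR adjusted p = 0.0199). For each 1000 macrophage marker counts the libraries held 0.815 ± 0.112 class II chain counts in control and 2.71 ± 0.0235 in APPswe, and with Lyz2 left out of the markers 2.10 ± 0.0632 and 6.50 ± 0.160 (SD, n = 3 each). The chains were higher in APPswe libraries and the summed macrophage markers lower, and such sums do not give a number of cells. The part of macrophages in the class II difference was not tested.

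Of 10 dendritic cell markers, Xcr1 and Siglech had 0 counts in all libraries and 4 were tested. Zbtb46, a transcription factor of classical dendritic cells, was called higher (background 3.74%), from 1.34 to 3.36 CPM (log2 fold change 1.32, edgeR adjusted p = 0.0145). Itgax (CD11c), the most abundant, was at 0.08 (edgeR adjusted p = 0.916) with all libraries and at -0.32 (edgeR adjusted p = 0.00583) without control replicate 2. Dpp4, too low to test with all libraries at 30, 0 and 21 control and 5, 4 and 2 APPswe counts, was called lower in the fit that left out control replicate 2 (-2.78, edgeR adjusted p = 0.000244). The summed list ranged from 21.4 to 72.8 CPM in control and from 56.3 to 63.4 CPM in APPswe libraries. B cell markers, led by Cd79b and Pax5, summed to 0.620 to 1.29 CPM in control and 0.724 to 1.12 CPM in APPswe libraries, and T cell markers, led by Lck, to at most 0.959 CPM. The B cell sum held opposite differences at low counts: Cd79b had 2, 6 and 1 control and 15, 8 and 14 APPswe counts, and Pax5 had 8, 16 and 6 control and 1, 1 and 0 APPswe counts, neither with overlap. Both were too low to test with all libraries, and Cd79b was called higher with control replicate 2 left out (2.92, edgeR adjusted p = 0.00272). Neutrophil markers, led by S100a8, summed to at most 2.37 CPM.

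Osteoclast and skeletal muscle genes also moved with the genotype. Summed osteoclast markers stood at 143.2 to 223.2 CPM in control and 645.9 to 661.8 CPM in APPswe libraries. Of 6 tested, Acp5, Mmp9, Oscar and Ocstamp were called higher (background 3.74%), and Ctsk, the most abundant, rose (log2 fold change 0.77, edgeR adjusted p = 0.0259). All 7 muscle genes tested, Ttn and Myl1 the most abundant, were called higher (background 3.74%). Their list summed to at most 4.78 CPM in control and 97.7 to 106.0 CPM in APPswe libraries. Of 12 osteoblast markers, 2 were higher at the adjusted p (background 10.5%) and 0 lower (background 12.0%). Sp7, a transcription factor of the lineage, was called higher (1.98, edgeR adjusted p = 0.0205), and Runx2 rose (0.63, edgeR adjusted p = 0.0374). Leaving out control replicate 2, the library with 1 count of Bglap, gave 3 higher (background 23.3%) and 5 lower (background 25.0%). Dmp1 (-4.21, edgeR adjusted p = 1.445e-08), Phex (-1.27, edgeR adjusted p = 0.0244) and Bglap2 (-1.12, edgeR adjusted p = 4.951e-05) were called lower, Ibsp was at -0.60 and Bglap at -0.46. Sp7 was still called higher (1.59, edgeR adjusted p = 3.685e-06), and Runx2 (0.84, edgeR adjusted p = 1.723e-05) and Alpl (0.77, edgeR adjusted p = 7.14e-06) rose. The part of any of these cell types in the class II values was not tested.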

How the data were processed

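Bulk RNA sequencing of 3 control and 3 APPswe libraries was analysed, with groups and replicate numbers from the sample labels. The labels do not say whether replicates came from separate animals, so p-values measure the spread between these samples, which may be technical. The authors deposited read counts per gene, not normalized, and FPKM values, in which 397 or 716 genes have a blank, read here as 0, depending on the style of the library name. Their own log2 fold changes and p-values were not used. The sequencer was a DNBseq instrument. The submitters' processing notes name the build GRCm 38, and the aligner and counter are not given in the sources used here.

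The tests were run with edgeR 4.0.16 under R 4.3.3 (TMM, filterByExpr, quasi-likelihood test, no covariate, Benjamini-Hochberg adjustment over 13484 genes). A standard error is the log2 fold change over the square root of F, and intervals (95%) use the t quantile at the fit's degrees of freedom. The alternatives were DESeq2 1.42.0 and its size factors, no TMM, no filter or at least 10 counts in every library, a replicate block, the library name style as a covariate, limma 3.58.1 on log2(FPKM + 1) or log2(FPKM + 0.1), macrophage marker counts as library size, adjusted p alone and each library left out. In simulated data with a true log2 fold change of 2 in 200 genes, edgeR called 193 of those and 10 other genes of 13374. No 2 of the 6 libraries agreed within sampling noise, but APPswe replicates 2 and 3 came close. Their counts differed by a chi-square of 1.573 per degree of freedom, where sampling noise alone gives about 1. The next closest pair, control replicates 1 and 3, was at 5.945. The small spread within APPswe thus rests in part on 2 libraries that are nearly alike.

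The members and the lists were chosen with earlier results of these data known. Named genes are all members, in each pathway list the genes called or else the 2 with the highest mean CPM, in each marker list the 2 highest and any called, and the 5 genes most like H2-Ab1. Irf8, Nfyb, Ifi30, Cd274, Csf1r, Cx3cr1, Dpp4, Runx2, Alpl, Dmp1, Phex, Bglap, Bglap2, Ibsp, Rfx5, Rfxap, Rfxank, Lgmn, Cd83, Icosl, Cd276, H2-K1, H2-D1, H2-Oa and the class I genes of the class II region were named after their values were seen. March8 is the symbol in the table for Marchf8. Promoter windows and gene bounds are from RefSeq on GRCm38.p6, and shared 50-base words were counted over GENCODE transcripts. The result of 1 listed gene is not reported here.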

Additional observations from a re-analysis of the deposited data

How the results depend on the processing

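The replicate numbers did not mark a pairing: same-numbered libraries correlated in their deviations from the group mean at 0.0736, -0.0364 and 0.158. With the replicate block 384 genes were called higher and 324 lower, with 2 members higher and 0 lower, and the adjusted p of H2-Aa was 0.0361 and of H2-Ab1 0.0274.

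Against 504 genes called higher and 486 lower, the counts were 322 higher with at least 10 counts in every library, 316 higher and 185 lower with limma on log2(FPKM + 1), 301 lower with limma on log2(FPKM + 0.1), and 1414 and 1622 at the adjusted p alone. Leaving out 1 library gave 281 to 670 higher and 230 to 905 lower genes, the latter without control replicate 2, and 0 to 1 members called higher. With the name style as covariate 1 member was called higher, since H2-Ab1 then stood at 0.94 on the log2 scale (edgeR adjusted p = 0.00974). The share of calls that were higher was 50.9%, and 58.4% without TMM, 63.1% and 64.1% with limma (pseudocounts of 1 and 0.1), 43.9% with at least 10 counts and 42.5% without control replicate 2.

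Over the 9 alternatives of tool, filter, scaling and covariate, H2-Aa had a log2 fold change of 1.04 to 1.17 and was called in all 9, H2-Ab1 one of 0.94 to 1.14 and was called in 8, and H2-Eb1 one of 0.72 to 0.89 with an adjusted p of at most 0.0427. H2-DMb1, at -0.52 to -0.35, passed the p limit in 3. With the summed macrophage marker counts as library size the median of all genes moved to 0.715, and H2-DMb1 turned to 0.29 and Cd86 to 0.32. H2-Eb1 (1.56) and Cd74 (1.03) were then called higher. In that fit 2978 of the 13484 genes tested were called higher, against 504 in the main fit. H2-DMb1 and Cd86 lay below that median, as in the main fit. This is no separate support, since a change of library size moves all genes nearly alike. Cd80 ranged from -0.11, without control replicate 2, to 0.18 with 1 library left out. With 3 libraries a group, 1 of which stands apart, changes smaller than the intervals given cannot be seen, and counts under the floor limit Ciita and Flt3.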

Other observations

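The genes whose log2 CPM followed H2-Ab1 most closely over the 6 libraries were Srsf9, a splicing factor (Pearson r = 0.999), Doc2g (0.998), Efnb1, an ephrin ligand (0.998), Kdm6b, a demethylase of histone H3 (0.998), and Prr7 (0.998). These values describe the order and spacing of 6 points that share their libraries and fall into 2 genotypes, and they carry no p. Kdm6b stood at 18.4, 15.9 and 21.9 CPM in control replicates 1, 2 and 3 and at 32.8, 40.1 and 39.3 CPM in APPswe replicates 1, 2 and 3. Like H2-Ab1 it was lowest in control replicate 2 among the controls and lowest in replicate 1 among the APPswe libraries. Srsf9 shared that order over a much narrower range, from 53.5 to 70.3 CPM.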
